A study of Homo sapiens with 2 samples.

Results

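The miR-183 cluster, which joins miR-183, miR-96 and miR-182, is a group of 3 microRNA (miRNA) hairpins (MIR183, MIR96 and MIR182) that lie close together on human chromosome 7. Its 6 mature arms were found by name in the scanner output of both arrays, and all 6 were present among the 2549 human miRNAs measured. RNA from exosomes of FaDu, a human cell line from a squamous carcinoma of the hypopharynx, was hybridised to 2 one-colour Agilent miRNA arrays, with 200 ng of total RNA labelled for each. The array labelled oe-NC held exosome RNA of cells that received the control plasmid, and the array labelled oe-HOTTIP (oe-HOTTIOP in its title) that of cells that received the plasmid for HOTTIP, a long noncoding RNA transcribed at the distal tip of the HOXA genes. The labels speak of a plasmid lentivirus, whereas the methods describe plasmids brought into FaDu cells with a lipid reagent, and neither states how many cultures the exosomes came from. With 1 array per group no test was possible and no p-value is given. Errors are SDs over the spots of 1 array, pooled within probes, and hold technical error only. For an arm with several probes they leave out the differences between its probes.

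The labels of the arrays disagreed. Titles and treatments gave the groups used here, the free-text descriptions gave each array to the other group, and each column of the normalized table deposited by the authors matched the scanner output of the other array. HOTTIP is no target of the array, so its level could not settle which was right. The arrays are called the oe-NC array and the oe-HOTTIP array after their titles, and every direction below reverses if the titles are wrong.

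A miRNA hairpin is cut into a 5p and a 3p arm. 1 of the arms is usually kept as the guide, which pairs with target mRNAs mainly through its seed, bases 2 to 8, and lowers their translation or stability. In this cluster the 5p arms are the usual guides. The hairpins are transcribed together, are best known from hair cells, photoreceptors and other sensory cells, where changes in the seed of miR-96 cause hearing loss, and are often raised in carcinomas, where FOXO1 is a known target. The study asked which miRNAs of FaDu exosomes differed when HOTTIP was overexpressed. From these arrays and predicted target genes it drew candidates that included miR-96-5p. The values of miR-96-5p here are thus no independent evidence about that choice. In the study's luciferase assay the miR-96-5p mimic did not give the change that was expected. The study took its candidates as lower with HOTTIP, and in the authors' normalized table miR-96-5p stood above the floor only in the column named for oe-NC. Under the titles it was detected on the oe-HOTTIP array alone, which is the disagreement of labels described above.

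The 6 mature sequences are shown because the 5p seeds are nearly the same, and a shared seed is what lets miRNAs share targets. They were taken from RefSeq (GRCh38.p14), all lie on the minus strand of chromosome 7, and capitals mark the seed.
hsa-miR-183-5p: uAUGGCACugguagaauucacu
hsa-miR-183-3p: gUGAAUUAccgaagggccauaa
hsa-miR-96-5p: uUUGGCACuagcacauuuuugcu
hsa-miR-96-3p: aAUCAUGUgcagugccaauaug
hsa-miR-182-5p: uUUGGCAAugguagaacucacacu
hsa-miR-182-3p: uGGUUCUAgacuugccaacua

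The arms of MIR183 lay at chr7:129774967-129774988 (5p) and chr7:129774928-129774949 (3p). Those of MIR96 lay at chr7:129774739-129774761 (5p) and chr7:129774697-129774718 (3p), with 166 bases between the arms of these hairpins. Those of MIR182 lay at chr7:129770447-129770470 (5p) and chr7:129770406-129770426 (3p), a further 4226 bases away. All 6 arms thus fell within 4583 bases. The arms were 21 to 24 bases long with a GC content of 39.1% to 45.5%, below the median of 52.2% over the 2248 array miRNAs with a RefSeq sequence and of 60.0% over the 387 of these that were detected on at least 1 array.

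The 5p seeds formed a close set. Counted from the 5′ end, miR-183-5p and miR-96-5p differed in the seed by A2U alone, miR-96-5p and miR-182-5p by C8A alone, and miR-183-5p and miR-182-5p by both. Over their whole length miR-183-5p and miR-182-5p were the most alike pair, with 18 of 22 positions equal, against 13 of 22 for miR-183-5p with miR-96-5p and 12 of 23 for miR-96-5p with miR-182-5p. The 3p seeds had no such likeness and differed at 4 to 7 of 7 positions.

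On the oe-NC array 2 arms of the cluster lay close under the limit of detection, and the other 4 were far under it on both arrays. The scanner software called a miRNA detected where the total signal of at least 1 of its probes was above 3 times the error of that total, a rule that fitted all 2549 miRNAs on each array. Neither miR-183-5p nor any other arm was detected on the oe-NC array (0 of 6, against 12.9% of all miRNAs), and miR-183-5p and miR-96-5p were detected on the oe-HOTTIP array (2 of 6, against 15.3%). These 2 arms were detected on the oe-HOTTIP array only, as were 5.06% of all miRNAs. The other 4 arms, miR-183-3p, miR-96-3p, miR-182-5p and miR-182-3p, were detected on neither array. No arm was detected on both, so no arm had a measured difference between arrays.

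Background-subtracted intensity before scaling is given in scanner units, and values below 0 are spots dimmer than their background. For miR-183-5p, the guide of the first hairpin, 20 spots on the oe-NC array ran from -3.59 to 8.76 with a median of 2.71 and a mean of 1.98 ± 2.16 (SD over spots). On the oe-HOTTIP array its 20 spots ran from -4.02 to 14.7 with a median of 3.92 and a mean of 5.43 ± 1.67 (SD over spots). The spots of the arrays overlapped, and only the upper part of the range was higher on the oe-HOTTIP array.

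For miR-96-5p, the guide whose seed is altered in inherited deafness, 19 spots on the oe-NC array ran from 1.87 to 8.35 with a median of 4.78 and a mean of 4.67 ± 1.64 (SD over spots). On the oe-HOTTIP array 20 spots ran from -0.545 to 14.2 with a median of 5.54 and a mean of 6.21 ± 2.90 (SD over spots). Here too the arrays overlapped, and the lowest as well as the highest of the spots used lay on the oe-HOTTIP array. A further spot on the oe-NC array, at 13.0 and well above background by the software's flag, was dropped as an outlier. With the outlier included, the software marked most spots of this arm as significantly above background on both arrays, 19 of 20 and 17 of 20. Only the oe-HOTTIP array had a detected probe.

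For miR-182-5p, the guide that differs from miR-96-5p by the last base of the seed, 20 spots ran from -6.43 to 2.26 (median -2.28, mean -2.01 ± 1.78, SD over spots) on the oe-NC array. They ran from -4.85 to 2.71 (median -1.57, mean -1.67 ± 1.92, SD over spots) on the oe-HOTTIP array. Both sets centred below 0, and 1 of 20 spots was significant on each array. In these arrays miR-182-5p was thus not detectable, while the guides of the neighbouring hairpins were detected on 1 array.

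The 3p arms, the usual passenger strands, were below 0 on average on both arrays. The means were -3.12 ± 1.59 (19 spots) and -2.53 ± 1.75 (20 spots) for miR-183-3p and -1.81 ± 1.79 and -1.44 ± 1.13 (20 spots each) for miR-96-3p, the oe-NC array first. For miR-182-3p they were -0.49 ± 1.88 (20 spots) and -1.29 ± 1.39 (19 spots). Among the spots used, the highest of any 3p arm was 3.31, on the oe-NC array for miR-182-3p. A spot of miR-183-3p on that array, at 5.54, was dropped as an outlier. Over the 4 undetected arms together, outlier spots included, 4 of 80 spots were significant on the oe-NC array and 1 of 80 on the oe-HOTTIP array. Over all 2092 miRNAs detected on neither array, 14.2% and 14.5% of spots were. Of the 16 probes of these 4 arms, 14 and 16 averaged below 0.

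**Figure D1:**
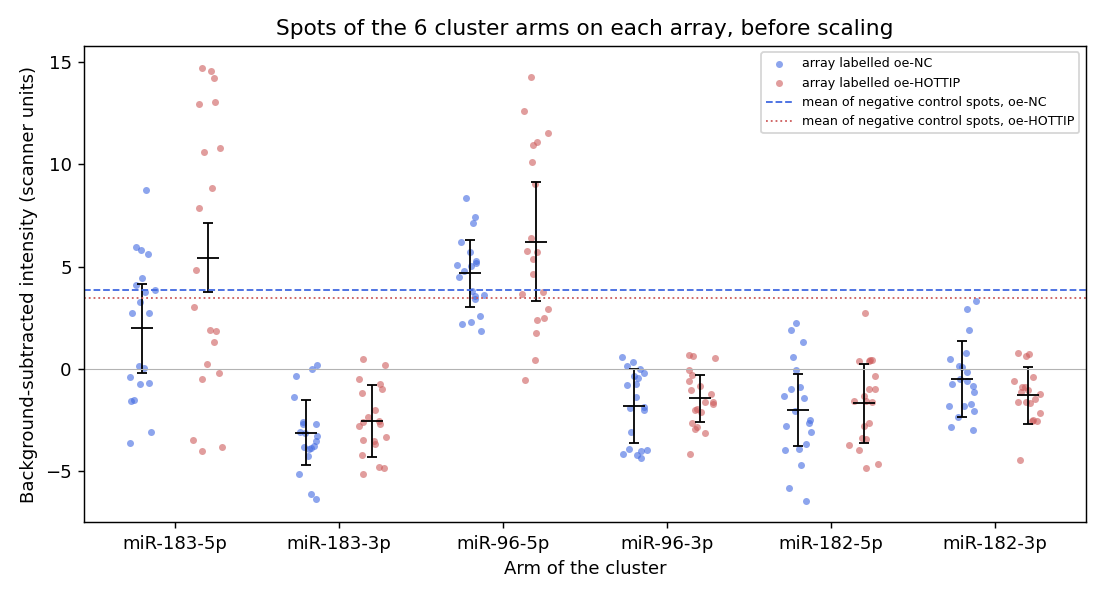
Background-subtracted intensity of each spot used (points, scanner units, vertical axis) for the 6 arms (horizontal axis) on the oe-NC array (blue) and the oe-HOTTIP array (red), before scaling, with the mean and the SD pooled within probes as black bars. The dashed and dotted lines are the means of the negative control spots, 3.87 and 3.45. Among the spots used, only those of miR-183-5p and miR-96-5p rise above 10 units, all on the oe-HOTTIP array. A spot of miR-96-5p at 13.0 on the oe-NC array was dropped as an outlier and is not shown.

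The negative control spots, which carry no miRNA probe, averaged 3.87 ± 2.37 (SD over 976 spots) on the oe-NC array and 3.45 ± 2.21 (SD over 975 spots) on the oe-HOTTIP array. The means of 4 arms were below these values on both arrays, miR-96-5p was above them on both, and miR-183-5p was below on the oe-NC array and above on the oe-HOTTIP array. Before scaling, a probe with 5 spots had to reach a mean intensity of about 6.44 on the oe-NC array and 6.95 on the oe-HOTTIP array to count as detected. Signals under these levels were not detectable here, which is no evidence that the RNA was absent.

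The detection of the 2 arms rested on some of their probes and not on others. Of the 4 probes of miR-183-5p, each with 5 spots, A_25_P00012099 gave 3.86, 4.11, 8.76, 5.60 and 5.94 on the oe-NC array and 14.5, 14.7, 13.0, 14.2 and 12.9 on the oe-HOTTIP array. Every spot on the oe-HOTTIP array was higher than every spot on the oe-NC array, and all 5 were well above background by the software's flag, against 0 of 5. Its total signal was 2.54 times its error on the oe-NC array and 5.14 times on the oe-HOTTIP array.

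Probe A_25_P00012098 of the same arm gave 0.142, 4.44, 3.25, 3.74 and 2.71 on the oe-NC array and 10.6, 4.81, 8.84, 10.8 and 7.85 on the oe-HOTTIP array. Again the spots did not overlap, and total over error went from 1.32 to 3.46, past the limit. The other 2 probes of miR-183-5p, A_25_P00012096 and A_25_P00012097, did not pass on either array, with mean intensities of -1.71 and 1.11 on the oe-NC array and of -2.40 and 1.67 on the oe-HOTTIP array. The probes of 1 arm thus disagreed, and the pooled mean of miR-183-5p holds a pair brighter on the oe-HOTTIP array and a pair within background on both.

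For miR-96-5p, probe A_25_P00012035 had a mean of 5.55 ± 1.81 (SD, 9 spots) on the oe-NC array and 9.41 ± 3.52 (SD, 10 spots) on the oe-HOTTIP array, with total over error of 2.50 and 3.73. Probe A_25_P00012034 had the lower mean on the oe-HOTTIP array, 3.01 ± 2.11 against 3.79 ± 1.46 (SD, 10 spots each), with total over error of 1.28 against 1.74. The spots of both probes overlapped between arrays. Over the 22 probes of the cluster, 2 had all spots above those of the oe-NC array before scaling, against 8.26% of all probes, and 0 had all spots below, against 2.61%.

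**Figure D2:**
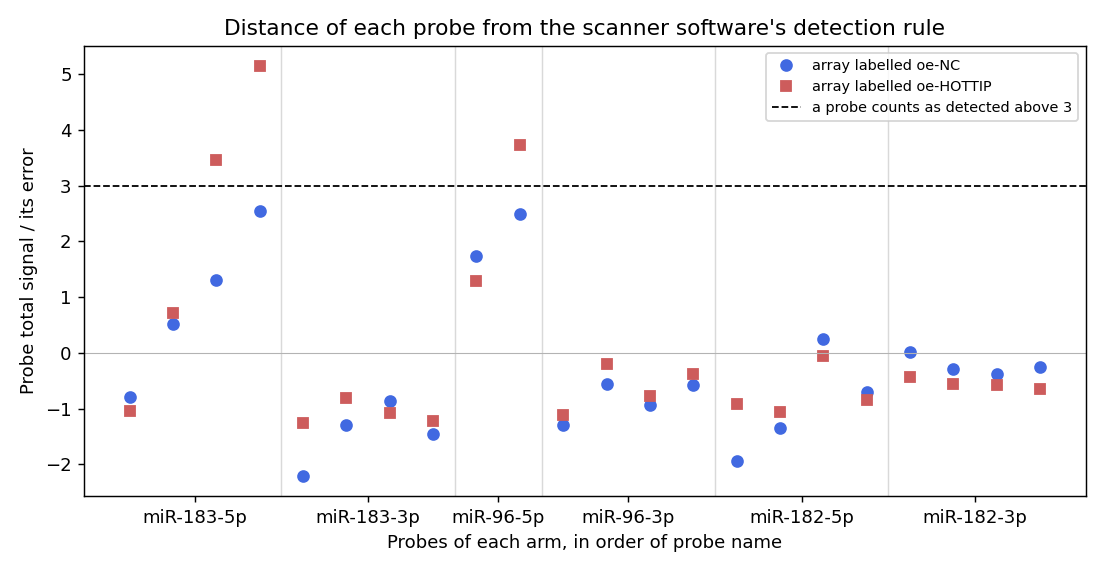
Total signal of each of the 22 probes divided by its error (vertical axis), grouped by arm and ordered by probe name (horizontal axis), on the oe-NC array (blue circles) and the oe-HOTTIP array (red squares). The dashed line marks the limit of 3 above which a probe counts as detected, and only 2 probes of miR-183-5p and 1 of miR-96-5p lie above it, all on the oe-HOTTIP array.

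On the oe-NC array, miR-183-5p and miR-96-5p lay just under the limit. The best probe reached 2.54 and 2.50 errors, higher than that of 99.0% and 98.8% of the 2221 miRNAs not detected there. Among the 129 miRNAs detected on the oe-HOTTIP array alone, 33 (25.6%) had a best probe of at least 2 errors on the oe-NC array, with a median over the 129 of 0.937. Both arms were thus closer to detection on the oe-NC array than most miRNAs with the same pattern. For the other 4 arms the best probe ranged from -0.861 to 0.257 errors.

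The arrays differed in brightness, which moved with these results. The 90th percentile of the 261 miRNAs detected on both arrays was 279.9 on the oe-NC array and 439 on the oe-HOTTIP array, a ratio of 1.57. Intensities were therefore divided by this percentile and put back on the scale of its geometric mean, here called scaled intensity. The mean of the negative control spots became 4.85 on the oe-NC array and 2.76 on the oe-HOTTIP array. Scaling thus also moved signal at the level of background, where these arms lay. The median log2 difference over the 261 miRNAs was 0.67 before scaling and 0.02 after it. The detection limit of a probe with 5 spots was 2.30% of the 90th percentile on the oe-NC array and 1.58% on the oe-HOTTIP array. After scaling the limit was thus higher on the oe-NC array, where no arm was detected.

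After scaling, miR-183-5p had a scaled intensity of 2.48 ± 2.71 on the oe-NC array and 4.34 ± 1.34 on the oe-HOTTIP array (SD pooled within probes, 20 spots each). Set against its own signal on the oe-NC array, which was not detected, its ratio of the oe-HOTTIP over the oe-NC array was 1.75, or 0.81 on the log2 scale. With a higher floor, the signal at which at least 50% of miRNAs of like rank were detected, the ratio was 0.651, so the direction depended on the floor and no fold is given as a bound. Its brightest probe, A_25_P00012099, had scaled intensities of 7.09 ± 2.45 and 11.1 ± 0.665, and A_25_P00012098 had 3.58 ± 2.06 and 6.84 ± 1.94 (SD over 5 spots, the oe-NC array first). Neither probe was detected on the oe-NC array, so no fold change is given for them. These spots, separate before scaling, overlapped after it, at 4.84 to 11.0 against 10.3 to 11.7 for the former and 0.178 to 5.56 against 3.84 to 8.60 for the latter.

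For miR-96-5p the order of the means turned round with scaling, to a scaled intensity of 5.86 ± 2.05 (19 spots) on the oe-NC array and 4.95 ± 2.32 (20 spots) on the oe-HOTTIP array. The ratio against its own signal was 0.846, under 1, so no fold is given. Probe A_25_P00012034, detected on neither array, had scaled intensities of 4.75 ± 1.83 and 2.40 ± 1.69, and A_25_P00012035 had 6.96 ± 2.27 and 7.51 ± 2.81 (SD over spots, the oe-NC array first). The spots of each probe overlapped between arrays, and no direction is drawn from them.

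Of the 2 arms detected on at least 1 array, 0 passed the 2-fold threshold of the methods in either direction, and the other 4 arms could not be called. Over the 457 miRNAs detected on at least 1 array, 33.9% were at least 2-fold higher and 25.2% at least 2-fold lower on the oe-HOTTIP array, by a difference or a bound. These shares mix differences of the 261 miRNAs detected on both arrays with bounds, whereas each of the 2 arms was detected on 1 array only. They also keep bounds that another floor would turn. With the higher floor 86 were higher and 88 lower, against 155 and 115. Without scaling the ratio of miR-183-5p was 2.75, and with the summed intensity of the scanner software it was 2.08, both past the threshold.

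**Figure D3:**
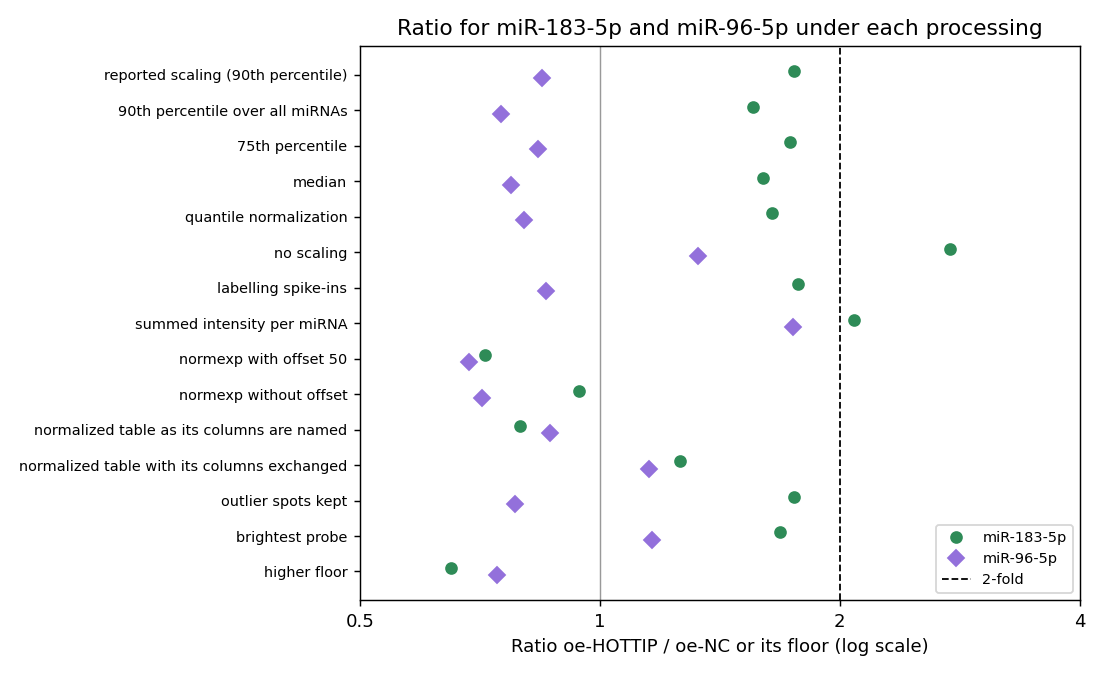
Ratio of the oe-HOTTIP array over the oe-NC array, or over the floor set for it (horizontal axis, log scale), for miR-183-5p (green circles) and miR-96-5p (purple diamonds) under the reported processing and each alternative that gave a value (vertical axis). The ratio of miR-183-5p runs from 0.651 to 2.75 and passes the dashed 2-fold line under 2 of 14 alternatives, and that of miR-96-5p runs from 0.685 to 1.75 and does not pass it. The normalized table enters in both orientations, with reciprocal ratios.

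The authors' normalized log2 table held the same pair of arms with the columns the other way round. In the column named for oe-NC miR-183-5p stood at 0.33 and miR-96-5p at 0.21, both near the bottom of the 388 entries above the floor in that column, with 43 and 25 entries lower. Both arms were at the floor of 1e-06 in the column named for oe-HOTTIP. The other 4 arms were at the floor in both columns.

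Among the array miRNAs with a RefSeq sequence, miR-1271-5p was the only one to share a full seed with a 5p arm, that of miR-96-5p. Its mean intensity was -2.34 ± 1.56 on the oe-NC array and -2.52 ± 0.768 on the oe-HOTTIP array (SD pooled within probes, 18 spots each), with 0 spots significant, and it was detected on neither array. None of the others shared the seed of miR-183-5p or miR-182-5p.

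For comparison, 2 other groups of clustered miRNAs known from epithelial tumours are given. Of the 9 arms of the miR-200 family, which keeps epithelial cells from mesenchymal change by repressing ZEB factors, 3 were detected on both arrays. Another, miR-200a-3p, was detected on the oe-HOTTIP array alone and passed 2-fold against its own undetected signal on the oe-NC array. Its intensity of 4.91 on the oe-HOTTIP array lay under the higher floor of the oe-NC array, 5.32 before scaling. The direction thus depended on the floor here too, and no fold is given. The median log2 difference of the 3 detected on both arrays was -0.64. Of the 12 arms of the miR-17-92 cluster, which promotes proliferation, 6 were detected on both arrays with a median log2 difference of 0.26, and 1 of them, miR-92a-3p, passed 2-fold, at -1.52. The median over all miRNAs detected on both arrays was 0.02. The miR-183 cluster had 0 of 6 arms detected on both arrays, and no difference between the groups of miRNAs was tested.

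The squamous origin of the cells showed in part. Of 8 miRNAs known from squamous and other epithelia, 5 and 6 were detected, with summed intensities of 530.4 and 639.9 on the oe-NC and oe-HOTTIP arrays, most of it from miR-205-5p, while miR-203a-3p and miR-429 were not detected. Of 7 miRNAs known from blood cells and serum, 5 were detected on each array, with summed intensities of 2282 and 2628, nearly all from miR-451a, while miR-142-3p and miR-142-5p were not detected. Of 6 miRNAs of liver, muscle and brain, 2 were detected on each array, with sums of 14.9 and 27.7, but only miR-122-5p on both. The muscle miRNA miR-133a-3p was detected on the oe-NC array alone, with intensities of 8.94 and 0.171. Another muscle miRNA, miR-206, was detected on the oe-HOTTIP array alone, with -1.11 and 14.4 (the oe-NC array first). Each sum was larger on the oe-HOTTIP array before scaling. After scaling, the median log2 difference of those detected on both arrays was -0.62 for the epithelial list and -0.33 for the blood list. The blood list went both ways. On the oe-HOTTIP array miR-150-5p (1.38) and miR-223-3p (0.69) were higher, and miR-486-5p (-1.75), miR-451a (-0.46) and miR-144-3p (-0.33) were lower. In the epithelial list miR-141-3p (0.17) was higher, and the others detected on both arrays were lower. The part of these RNAs or of the brightness of the arrays in the detection of miR-183-5p and miR-96-5p was not tested. Less RNA per exosome and fewer exosomes of a kind cannot be told apart in such bulk RNA.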

How the data were processed

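The authors deposited the scanner output of 1 array per group, with background-subtracted intensity per spot and totals per probe and miRNA (Agilent Feature Extraction, 11.5.1.1 in the file header, 10.10 in the submitters' processing notes), and a log2 table that the methods trace to GeneSpring and a 90th percentile normalization. Outlier spots were dropped, spots averaged per probe and probes per miRNA, and intensities divided by the array's 90th percentile among the 261 miRNAs that both arrays detected. A miRNA detected on 1 array got a bound against the higher of the other array's lowest detected signal (0.976 on oe-NC, 2.43 on oe-HOTTIP) and its own signal there. No fold is given under 1, or where another floor turned the direction.

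The text names the 6 arms, seed sharers and listed miRNAs. A rule naming miRNAs of like pattern applied only to arms detected on both arrays, and none was. Members and lists were chosen with earlier results of these data known. The alternatives were other scalings, summed intensity, normexp, the normalized table, other detection, outlier spots kept, the brightest probe, a dim filter and a higher floor. Each array had 50980 miRNA spots, 0 saturated, and precision is limited by the number of arrays. Summary and calls were tested on simulated data in which both arrays detected the same miRNAs, so bounds and floors were not tested. Python 3.11.15, numpy 2.4.6, pandas 2.3.3, R 4.3.3 and limma 3.58.1 were used.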

Additional observations from a re-analysis of the deposited data

How the results depend on the processing

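With 16 alternatives, 0 arms passed 2-fold under 14, and 1 arm, miR-183-5p, passed without scaling and with the summed intensity. The ratio of miR-183-5p was at least 1 under 10 of the 14 alternatives that gave one, and that of miR-96-5p under 4 of 14, reaching 1.75 with the summed intensity. Detection by over 50% of spots well above background and the filter on dim miRNAs (8.62 and 7.87) kept no arm and gave no ratio. No arm could pass 2-fold under them, although they count among the 14 settings with 0 arms. Of 120 scaled levels, 92 moved by less than the SD over spots. With normexp and an offset of 50, the levels (oe-NC, then oe-HOTTIP) were 72.0 and 51.8 for miR-183-5p, 66.4 and 45.3 for miR-183-3p, 76.3 and 52.3 for miR-96-5p, 67.9 and 46.5 for miR-96-3p, 68.9 and 46.0 for miR-182-5p, and 69.9 and 46.6 for miR-182-3p. Without the offset they were 11.2 and 10.6, 5.40 and 4.32, 15.6 and 11.1, 6.91 and 5.45, 7.93 and 4.99, and 8.97 and 5.57 in the same order. The offset was a constant added to every spot before scaling. With and without it, all 6 arms had the lower level on the oe-HOTTIP array, the 4 detected on neither array included. No direction is drawn from these levels. With the brightest probe, miR-183-5p was at 6.83 and 11.5, miR-96-5p at 7.79 on oe-HOTTIP and miR-182-5p at 0.668 on oe-NC. Over all miRNAs, 155 were at least 2-fold higher and 115 lower (42.6% of calls lower), against 223 and 63 (22.0%) without scaling, 8 and 26 (76.5%) with normexp and offset, 53 and 84 (61.3%) without offset, 86 and 33 (27.7%) with detection by over 50% of spots, 44 and 36 with the dim filter, 86 and 88 (50.6%) with the higher floor, and 104 and 103 in the normalized table. The cause of these changes was not tested. Levels in another unit (summed intensity, normalized table) were not compared. No paired analysis was possible because there was 1 array per group, and leaving out replicates does not apply. No log2 difference of an arm detected on both arrays exists under the reported processing. Signal over background limits all 6 arms.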
